A study of Homo sapiens with 8 samples.

Results

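The genes described here are 52 genes of DNA replication and of the E2F transcription factors, taken by symbol from a list of licensing factors, helicase subunits, polymerases and other fork proteins, nucleotide enzymes, E2F factors and chromatin assembly subunits. All 52 were found among the 13036 genes of the expression table, and all 52 passed a filter of at least 1 CPM (read counts scaled by library size, on the deposited scale) in at least 2 libraries. By role they comprised 10 licensing factors, 11 helicase genes, 20 polymerase and fork genes, 4 nucleotide enzymes, 5 E2F factors and 2 chromatin assembly genes. The list was taken by gene function, with earlier results of these data known.

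The cells were LN229-TAZ(4SA). This is a glioblastoma line of human origin that carries, by its name, a 4SA form of TAZ, a co-activator controlled by the Hippo pathway. There were 4 groups of 2 libraries: regular culture without AF for 1 h, regular culture without AF for 7 h, glucose deprivation with AF at 1 µM for 1 h, and glucose deprivation with AF at 1 µM for 7 h. Every group, controls included, was of this line grown in DMEM with fetal bovine serum. The labels give AF only as an abbreviation, and the title of the series concerns thioredoxin reductase 1 inhibition in glucose-starved glioblastoma cells. Cells in AF without glucose are called treated below. AF and glucose loss came together, so their effects cannot be told apart. Which promoter drives TAZ(4SA), or whether the line is a clone, is not given in the sources used here.

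Replication of DNA is prepared in G1, when the origin recognition complex (ORC1 to ORC6), CDC6 and CDT1 load the MCM2 to MCM7 helicase onto origins. This step is called licensing, and geminin (GMNN) blocks it after S phase has begun. CDC45 and the GINS complex then activate the helicase, and the polymerases alpha, delta and epsilon copy the strands with the sliding clamp PCNA, its loader RFC and the single-strand binding protein RPA. Many of these genes are transcribed late in G1 through E2F factors. E2F1, E2F2 and E2F3 are the activators, whereas E2F7 and E2F8 are atypical members that repress E2F targets and are themselves E2F targets.

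Reads assigned to the listed genes numbered 27731776 to 45811965 per library, and the smallest read number of any of the 52 genes in any library was 99, for POLE2. The treated libraries at 7 h stood apart. Their library sizes behind the deposited CPM were 0.838 and 0.846 times the reads in listed genes, against 1.04 to 1.05 in regular culture and 1.09 in treated cells at 1 h. The 10 most abundant genes took 10.9% of their reads, against 4.94% to 5.70% in the other libraries. Each result at 7 h therefore rests on the scaling, and signs that turned at 7 h under another scaling are given beside the value. Of 9 markers fixed for a glioblastoma or mesenchymal line, 7 exceeded 10 CPM in every group, including VIM and CD44, while GFAP lay near 1 CPM. Other lineages were represented by 3 of 3 neuron, 2 of 3 oligodendrocyte, 1 of 4 immune, 1 of 3 endothelial, 1 of 3 epithelial and 0 of 3 erythroid markers. The endothelial marker stayed under 2 CPM in every library. The neuron markers summed to 51.7 to 56.2 CPM (regular) and 51.3 to 53.3 CPM (treated) at 1 h, and to 43.5 to 46.1 CPM (regular) and 127 to 132 CPM (treated) at 7 h. At 7 h the oligodendrocyte markers summed to 89.5 to 92.1 CPM in regular and 176 to 178 CPM in treated cells (174 to 211 CPM at 1 h). The immune marker was at 13.2 to 14.3 CPM in regular and 21.1 to 22.1 CPM in treated cells, and the epithelial marker at 6.95 to 7.99 and 15.2 to 15.6 CPM. The part of these markers in the results was not tested. Nothing in the labels ties the libraries to separate cultures. The p-values then measure only the spread between libraries, which may be technical.

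Among the 52 genes the 7 h comparison ran mostly downwards. At 7 h 33 were lower and 9 higher in treated cells than in regular culture (limma, Benjamini-Hochberg adjusted p under 0.05 over all 13028 tested genes), and 10 did not pass. Of all tested genes 41.1% were called lower and 40.5% higher. The median log2 fold change was -0.32 over the 52 genes and -0.01 over all genes. A change of at least 2-fold was called lower for 10 of them (11.5% of all genes) and higher for 1, E2F7 (10.6% of all genes). The plot of fold changes at both times shows all 52. In bulk RNA, fewer cells in a stage of the cycle and less RNA per cell cannot be told apart.

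At 1 h the 52 genes showed small shifts in both directions: 14 were higher and 11 lower (17.7% and 20.7% of all genes), the median was 0.03 against 0.01 over all genes, and none reached 2-fold (1.1% of all genes did so upwards and 2.03% downwards). The split depended on the scaling. Calls numbered 25 higher and 6 lower after quantile normalization, and 24 and 6 when each library was scaled to its own total of reads in the table (total scaling). Over all genes the shares at 1 h were 23.7% higher and 17.3% lower after quantile normalization, and 30.2% and 13.99% under total scaling. Calls over all genes thus moved in the same directions as those of the 52 genes. At 7 h these 2 scalings gave 8 higher and 35 lower, and 4 higher and 45 lower, against 39.1% and 41.99%, and 24.1% and 58.2%, of all genes. Total scaling moved the median of all genes at 7 h to -0.32 and that of the 52 genes to -0.64. It shifts all genes of a library alike, so the distance between both medians (-0.32) could hardly differ from the deposited scale. After quantile normalization, which can change this distance, it was -0.25. Without 1 library of regular culture at 1 h (A) the 1 h calls dropped to 9 higher and 7 lower, and without library B of the treated cells at 1 h to 9 higher. With each library left out in turn, 8 of the 14 higher and 6 of the 11 lower calls at 1 h were kept throughout.

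**Figure D1:**
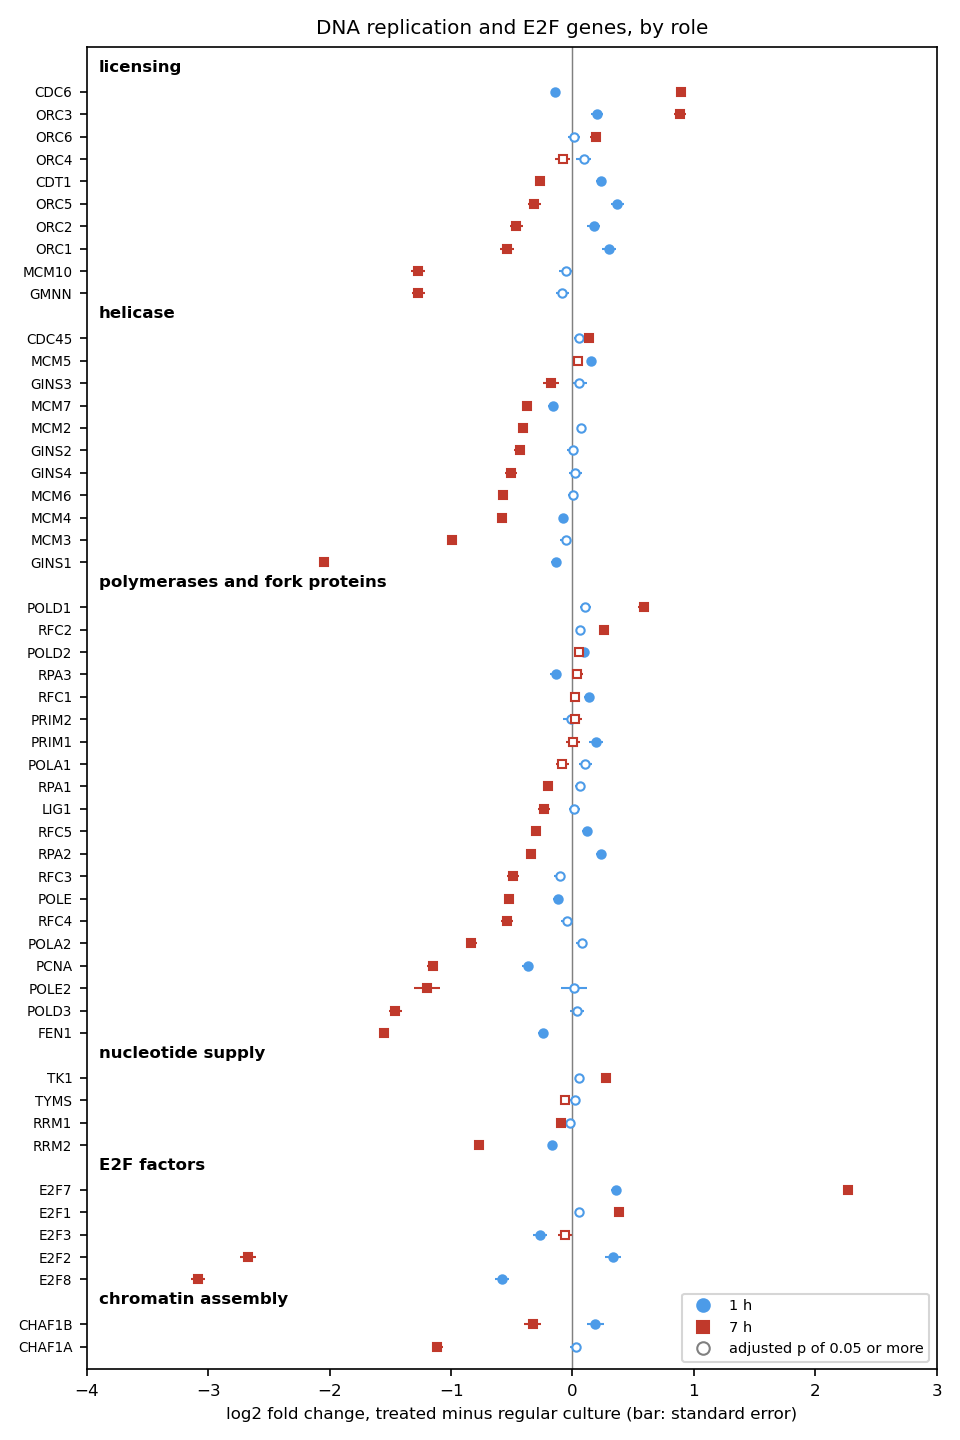
Log2 fold change of treated over regular culture at 1 h and 7 h for all 52 genes, ordered within their roles, with bars for the standard error and open symbols for an adjusted p of 0.05 or above (limma). At 1 h every gene lies between -0.58 and 0.37, and at 7 h they extend from -3.09 for E2F8 to 2.27 for E2F7.

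The 5 E2F factors diverged most. E2F2 and E2F8 had the lowest 7 h fold changes of the 52 genes and E2F7 the highest, E2F1 was modestly higher and E2F3 did not pass. Because promoters of replication genes often carry E2F binding letters, the 250 bases before each start were searched, on both strands, for TTTCCCGC, TTTCGCGC, TTTGCCGC and TTTGGCGC (E2F), for TTTGAA and TTCGAA (CHR, a cell cycle element of G2 and mitosis genes), and for CCAAT (the CCAAT box). RefSeq promoters (GRCh38.p14) were matched for 45 of the 52 genes. E2F letters were present in 16 of 45 (35.6%), against 2.79% of all 27305 promoters and 4.55% of the promoters of genes in the expression table. A CCAAT box was present in 26 (57.8%), against 33.04% of all promoters and 35.3% of those of genes in the expression table. CHR letters were present in 3 (6.67%), against 14.6% and 9.82%. No E2F match shared bases with a CCAAT match in these promoters, and 10 genes held both. The E2F letters occurred in 11 of 28 genes called lower at 7 h, 2 of 9 called higher and 3 of 8 not called, so genes with these letters lay in every class.

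These promoters are shown because 3 of the genes belong to the factors that moved apart and MCM6 is a helicase target with a repeated match. Capitals mark E2F letters on either strand, overlapping matches joined, and each is written 5′ to 3′ on the strand of its gene, which is the minus strand for all of them, ending at the base before the start. E2F1 (chr20:33686386-33686635) held GCGGCAAA, the reverse complement of TTTGCCGC, 33 bases before its RefSeq start and TTTGGCGC 20 bases before it. In the GENCODE v29 annotation 19 bases of the E2F1 window and 11 of the E2F7 window lie in exons. For E2F1 these bases, next to the RefSeq start, cover most of the match at 20 bases. E2F2 (chr1:23531234-23531483) held 1 match, 42 bases before the start, and no CCAAT box. E2F7 (chr12:77065570-77065819) held 4 CCAAT boxes and none of the E2F letters, which says only that these letters are not in this window. MCM6 (chr2:135876444-135876693) held 4 overlapping matches at 2 places, TTTGGCGC at 152 and at 90 bases before its start and, sharing bases with each, GCGCGAAA (the reverse complement of TTTCGCGC) at 148 and 86 bases. A match is a description of letters and not a binding site.
E2F1: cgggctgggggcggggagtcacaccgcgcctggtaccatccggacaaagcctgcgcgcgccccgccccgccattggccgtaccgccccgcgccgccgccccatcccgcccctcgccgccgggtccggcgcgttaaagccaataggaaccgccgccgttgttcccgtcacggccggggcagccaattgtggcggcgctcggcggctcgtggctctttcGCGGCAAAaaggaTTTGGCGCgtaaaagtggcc
E2F2: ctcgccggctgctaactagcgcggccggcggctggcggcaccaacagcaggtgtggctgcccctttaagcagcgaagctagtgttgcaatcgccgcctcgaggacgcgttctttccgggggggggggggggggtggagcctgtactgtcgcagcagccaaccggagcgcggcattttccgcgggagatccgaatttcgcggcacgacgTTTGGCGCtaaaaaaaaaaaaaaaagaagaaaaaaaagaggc
E2F7: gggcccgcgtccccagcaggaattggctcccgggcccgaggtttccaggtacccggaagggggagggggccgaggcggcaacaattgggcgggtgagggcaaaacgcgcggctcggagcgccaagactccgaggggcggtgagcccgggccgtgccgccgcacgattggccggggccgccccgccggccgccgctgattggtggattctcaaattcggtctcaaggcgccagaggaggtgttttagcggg
MCM6: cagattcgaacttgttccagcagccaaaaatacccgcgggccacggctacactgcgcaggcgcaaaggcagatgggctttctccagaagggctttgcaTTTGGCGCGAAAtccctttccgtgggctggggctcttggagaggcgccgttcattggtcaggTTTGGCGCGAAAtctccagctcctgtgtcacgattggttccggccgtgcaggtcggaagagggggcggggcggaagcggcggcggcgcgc

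E2F8, which lies at chr11:19224063-19241620 on the minus strand (GRCh38, GENCODE v29), measured 47.2 and 44.9 CPM in regular culture and 30.5 and 31.0 CPM in treated cells at 1 h. At 7 h it measured 50.1 and 51.0 CPM in regular culture and 5.77 and 6.03 CPM in treated cells. The treated libraries lay below the regular ones at both times with no overlap. The log2 fold change was -0.58 ± 0.06 (SE) at 1 h, adjusted p 8.16e-08, and -3.09 ± 0.06 at 7 h, adjusted p 5.81e-20 (limma), an 8.50-fold lower level at 7 h. It was the 1 gene of the 52 whose 1 h call held in every alternative run, including a test against a 1.2-fold change.

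E2F2 moved in opposite directions at the 2 times. It measured 26.6 and 24.9 CPM in regular culture and 32.8 and 32.2 CPM in treated cells at 1 h, then 38.9 and 38.4 CPM in regular culture and 6.33 and 5.71 CPM in treated cells at 7 h. Treated libraries were the higher pair at 1 h and by far the lower pair at 7 h. The changes were 0.34 ± 0.07 (adjusted p 0.000395, limma) and -2.67 ± 0.07 (adjusted p 5.09e-18), the latter a 6.38-fold lower level.

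E2F7, the other atypical repressor beside E2F8, was higher at both times. Regular culture gave 59.5 and 58.8 CPM at 1 h and 64.3 and 59.5 CPM at 7 h, whereas treated cells gave 77.7 and 74.2 CPM at 1 h and 295 and 303 CPM at 7 h. All treated libraries exceeded all regular ones. The log2 fold change was 0.36 ± 0.04 at 1 h and 2.27 ± 0.04 at 7 h, adjusted p 9.22e-07 and 6.13e-20 (limma), a 4.82-fold higher level at 7 h. E2F7 and E2F8, which share the atypical double DNA-binding structure, thus went opposite ways at 7 h.

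E2F1 measured 101 and 104 CPM in regular culture and 108 and 104 CPM in treated cells at 1 h, and 111 and 112 against 146 and 144 CPM at 7 h. The 7 h groups did not overlap, with a log2 fold change of 0.38 ± 0.04 (adjusted p 6.71e-09, limma), but under total scaling the change shrank to 0.06 and did not pass. E2F3 was lower at 1 h (-0.27 ± 0.05, adjusted p 0.000644) and its libraries overlapped at 7 h (-0.06 ± 0.05). At 7 h the activators thus gave 3 different outcomes: E2F1 higher on the deposited scale, E2F2 lower and E2F3 not called.

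**Figure D2:**
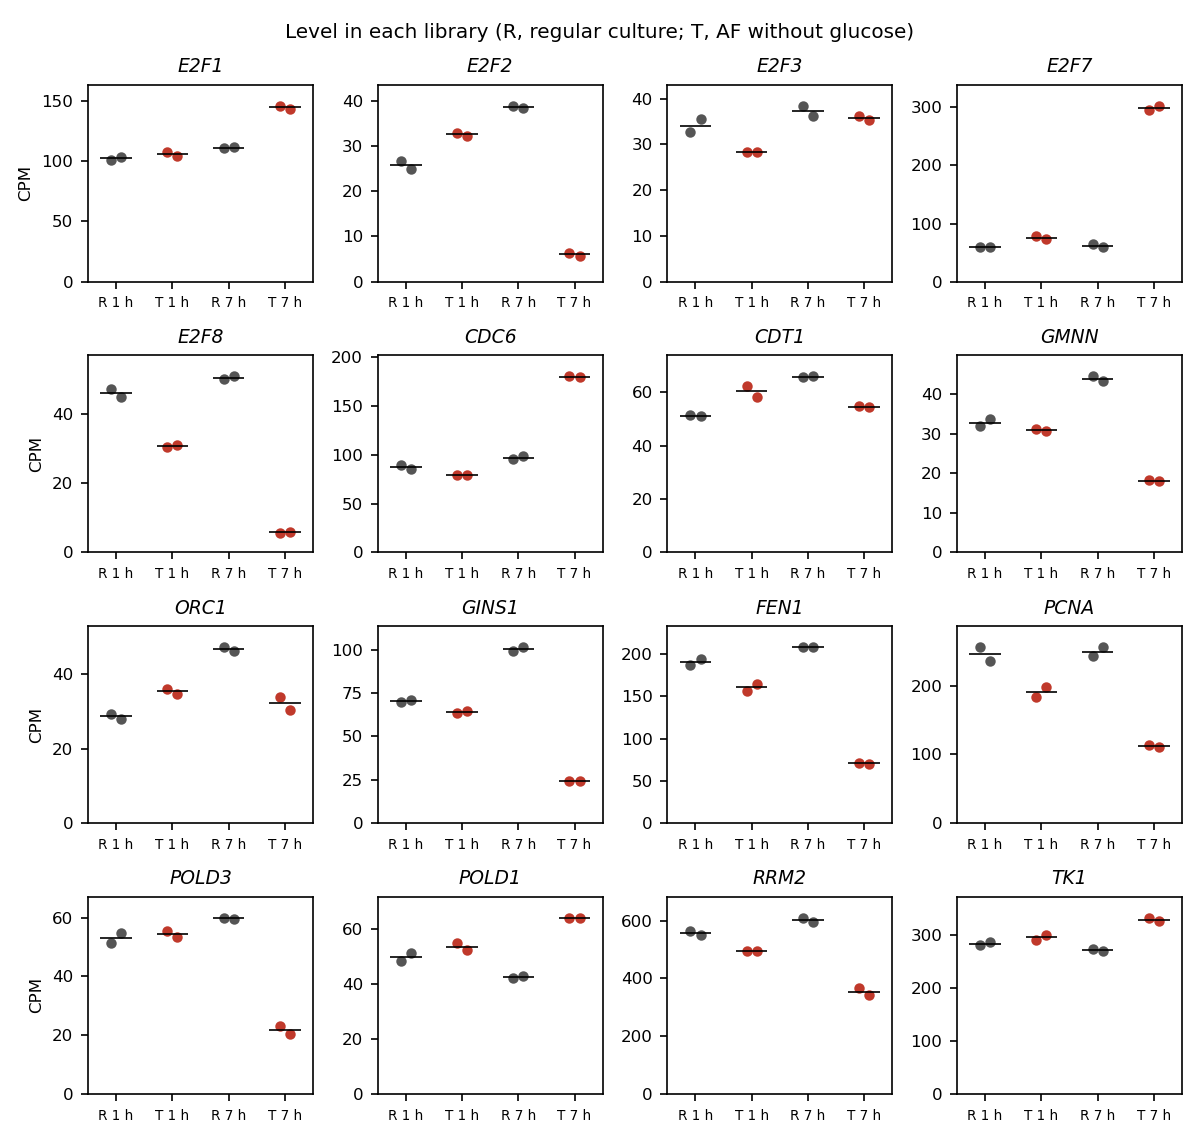
CPM on the deposited scale, prior removed, of 16 of the genes in each of the 8 libraries (dots) with the mean of each group of 2 (line), on linear axes that start at 0. E2F2, E2F8, GINS1, FEN1 and POLD3 drop in both treated libraries at 7 h, while E2F7 and CDC6 reach their highest values there.

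Licensing factors went in both directions. Of the 10, 6 were lower and 3 higher at 7 h (41.1% and 40.5% of all genes), with a median of -0.29. Under total scaling 8 were lower and 2 higher (58.2% and 24.1% of all genes). At 1 h 5 were higher and 1 lower (17.7% and 20.7% of all genes), with a median of 0.13. Under total scaling 6 were higher and 0 lower at 1 h (30.2% and 13.99% of all genes). CDC6, the loader ATPase at chr17:40287633-40304657, rose by about as much as ORC3, described below. It measured 89.6 and 85.9 CPM in regular culture and 79.6 and 79.6 CPM in treated cells at 1 h, then 95.4 and 98.5 CPM in regular culture and 180 and 180 CPM in treated cells at 7 h. Treated libraries were slightly below the regular ones at 1 h and well above them, 1.86-fold, at 7 h. The changes were -0.14 ± 0.04 (adjusted p 0.00483, limma) and 0.89 ± 0.04 (adjusted p 1.77e-14). The 1 h call was lost without library A of regular culture at 1 h (-0.11) and under both other scalings (-0.08 and -0.07), whereas the 7 h call held in all 15 alternatives.

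GMNN, the inhibitor of CDT1, fell at 7 h. It measured 31.9 and 33.7 CPM in regular culture and 31.2 and 30.7 CPM in treated cells at 1 h, and 44.5 and 43.3 against 18.4 and 17.9 CPM at 7 h. The 7 h pairs lay far apart, at a log2 fold change of -1.27 ± 0.05 (adjusted p 2.30e-14, limma), and the 1 h difference of -0.09 ± 0.05 did not pass.

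CDT1, which brings the helicase to the origin, measured 51.5 and 51.1 CPM in regular culture and 62.4 and 58.4 CPM in treated cells at 1 h. At 7 h it measured 65.7 and 66.0 CPM in regular culture and 54.9 and 54.5 CPM in treated cells. It was higher at 1 h (0.23 ± 0.04, adjusted p 0.000235, limma) and lower at 7 h (-0.27 ± 0.04, adjusted p 1.23e-05), with no overlap at either time. Because GMNN dropped further, the ratio of CDT1 to GMNN CPM at 7 h was 1.48 and 1.52 in regular culture but 2.99 and 3.04 in treated cells, against 1.61 and 1.52 in regular culture and 2.00 and 1.91 in treated cells at 1 h. This ratio does not depend on scaling to library size.

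The ORC genes did not move as a unit. At 1 h 4 of 6 were higher and none lower (17.7% and 20.7% of all genes). At 7 h 3 were lower (ORC1, ORC2, ORC5), 2 higher (ORC3, ORC6) and ORC4 was not called (-0.08 ± 0.06, and 0.0059 after quantile normalization). Of all genes 41.1% were lower and 40.5% higher, so calls in both directions are not particular to the ORC genes. Under total scaling 5 were lower and 1, ORC3, higher (58.2% and 24.1% of all genes). ORC1, the subunit whose protein level cycles, measured 29.4 and 28.1 CPM in regular culture against 36.0 and 34.8 CPM in treated cells at 1 h, and 47.3 and 46.1 against 33.9 and 30.5 CPM at 7 h. Its treated libraries were above the regular ones at 1 h (0.30 ± 0.06, adjusted p 0.000269, limma) and below them at 7 h (-0.54 ± 0.06, adjusted p 3.23e-08).

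ORC5 followed the same course, from 28.3 and 27.1 CPM against 34.9 and 36.6 CPM in treated cells at 1 h to 37.5 and 37.0 against 30.8 and 29.1 CPM at 7 h (0.37 ± 0.05 and -0.32 ± 0.05, adjusted p 1.54e-05 and 2.05e-05, limma). ORC2 measured 31.1 and 31.5 CPM against 34.3 and 36.4 CPM in treated cells at 1 h, and 37.6 and 37.2 against 28.1 and 26.2 CPM at 7 h (0.18 ± 0.05 and -0.46 ± 0.05, adjusted p 0.0140 and 1.66e-07). The 1 h call for ORC2 was lost without library A of regular culture (0.17) or library B of treated cells (0.13). Regular and treated pairs of both genes were separate at each time, with the order turned between 1 h and 7 h.

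ORC3 rose at both times, by 0.20 ± 0.05 at 1 h and 0.88 ± 0.05 at 7 h (adjusted p 0.00177 and 7.95e-13, limma). ORC6 was higher at 7 h by 0.19 ± 0.05 (adjusted p 0.00146) but turned to -0.13 under total scaling. Levels per kilobase of exons counted every annotated exon of a gene. By this measure ORC6 had the highest level of the 6 subunits and ORC4 the lowest in all 4 groups. Their ratio was 6.92 in regular culture and 8.36 in treated cells at 7 h. In CPM ORC4 was also the lowest, but ORC3 exceeded ORC6 in treated cells at both times. MCM10, which acts when the loaded helicase is activated, measured 55.3 and 53.9 against 52.6 and 52.3 CPM in treated cells at 1 h, and 72.1 and 69.2 against 31.7 and 27.0 CPM at 7 h. The gap opened at 7 h (-1.27 ± 0.06, adjusted p 9.14e-14), and the 1 h difference did not pass (-0.06 ± 0.06; 0.011 under total scaling).

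Of the 11 helicase genes 9 were lower and 1, CDC45, higher at 7 h (41.1% and 40.5% of all genes), with a median of -0.43. All 11 were lower under total scaling (58.2% of all genes). At 1 h 3 were lower and 1 higher (20.7% and 17.7% of all genes), with a median of 0.00. After quantile normalization 1 was lower and 4 higher at 1 h (17.3% and 23.7% of all genes). Under total scaling 1 was lower and 3 higher (13.99% and 30.2% of all genes). GINS1, a subunit of the GINS complex at chr20:25407727-25452628, changed far more than its partners. It measured 69.6 and 70.9 CPM in regular culture and 63.2 and 64.3 CPM in treated cells at 1 h, then 98.9 and 101 CPM in regular culture and 24.1 and 24.3 CPM in treated cells at 7 h. Treated libraries were below regular ones at both times, by -0.14 ± 0.04 at 1 h (adjusted p 0.0114, limma) and -2.05 ± 0.04 at 7 h (adjusted p 2.49e-19), a 4.13-fold lower level at 7 h. The 1 h call was lost without library B of regular culture (-0.13) or library A of treated cells at 1 h (-0.13), and it did not pass under either other scaling.

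The remaining GINS subunits showed smaller 7 h falls, of -0.51 ± 0.05 for GINS4, -0.43 ± 0.05 for GINS2 and -0.18 ± 0.06 for GINS3. Adjusted p was 2.01e-08, 6.42e-08 and 0.0160 (limma), and the GINS3 call was lost without library A of regular culture (-0.14) or library B of treated cells (-0.14) at 7 h and after quantile normalization (-0.10). Since the 4 proteins form a complex in equal numbers, their RNA levels were also compared per kilobase of exons. GINS1 had the highest level in regular culture at 7 h (30.8 CPM per kb), and GINS2 had the highest in treated cells at 7 h (16.0 CPM per kb). GINS4 was the lowest in all 4 groups.

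Among the MCM2 to MCM7 genes 5 were lower at 7 h (41.1% of all genes) and MCM5 did not pass. MCM3 changed most, from 179 and 186 CPM in regular culture to 95.9 and 87.6 CPM in treated cells at 7 h (-0.99 ± 0.04, adjusted p 4.76e-14, limma), just short of a 2-fold change. MCM4 (-0.58 ± 0.03), MCM6 (-0.57 ± 0.04) and MCM7 (-0.37 ± 0.03) were also lower. MCM2 measured 172 and 172 CPM in regular culture and 180 and 183 CPM in treated cells at 1 h, and 198 and 194 against 152 and 144 CPM at 7 h. Its 1 h difference did not pass (0.07 ± 0.03) and its 7 h fall did (-0.40 ± 0.03, adjusted p 1.62e-09).

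MCM5 was higher at 1 h (0.15 ± 0.03, adjusted p 0.00118, limma), while its 7 h value of 0.05 ± 0.03 was not called and turned to -0.15 after quantile normalization and -0.27 under total scaling. It passed upwards at 7 h without library B of treated cells (0.09). Summed over the 6 genes, MCM levels were 1531 and 1521 CPM in regular culture and 1176 and 1105 CPM in treated cells at 7 h, and the 2 treated libraries were the lowest of all 8. Per kilobase, MCM7 had the highest level in every group, and the lowest was MCM6 in every group but treated cells at 7 h, where it was MCM3. The ratio of highest to lowest was 2.36 to 2.64 in the other 3 groups and 3.15 there.

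CDC45, which completes the active helicase, measured 67.1 and 71.3 CPM in regular culture against 72.2 and 71.8 CPM in treated cells at 1 h, and 73.7 and 77.5 against 84.8 and 81.4 CPM at 7 h. The pairs did not overlap at either time but lay close together. At 7 h the change of 0.14 ± 0.04 passed (adjusted p 0.00713, limma), was lost without library A of regular culture (0.10) or library A of treated cells (0.11) at 7 h, and turned to -0.18 under total scaling.

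Of the 20 polymerase and fork genes 12 were lower, 2 higher and 6 not called at 7 h, with a median of -0.27. Of all genes 41.1% were lower and 40.5% higher. At 1 h 5 were higher and 4 lower, close to the shares of all genes (17.7% and 20.7%), with a median of 0.05. Under total scaling 10 were higher and 2 lower at 1 h (30.2% and 13.99% of all genes). The falls of at least 2-fold were those of FEN1, POLD3, POLE2 and PCNA. FEN1, the flap endonuclease that trims Okazaki fragments, measured 187 and 194 CPM in regular culture and 156 and 165 CPM in treated cells at 1 h. At 7 h it measured 208 and 208 CPM in regular culture and 71.3 and 70.3 CPM in treated cells. It was lower at both times with no overlap, by -0.25 ± 0.04 (adjusted p 1.74e-05, limma) and -1.55 ± 0.04 (adjusted p 2.19e-18), a 2.93-fold lower level at 7 h.

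PCNA, the sliding clamp, likewise fell at both times. It measured 256 and 237 CPM against 183 and 198 CPM in treated cells at 1 h, and 244 and 256 against 114 and 110 CPM at 7 h. The log2 fold change was -0.37 ± 0.04 (adjusted p 9.36e-07, limma) and then -1.15 ± 0.04 (adjusted p 3.67e-15). The annotation names 3 pseudogenes after PCNA and 1 after FEN1, so part of their reads may have been split by the authors' counting.

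Polymerase delta subunits moved in opposite directions. POLD3, an accessory subunit, measured 51.4 and 54.7 CPM against 55.4 and 53.4 CPM in treated cells at 1 h, with overlap, and 60.0 and 59.6 against 23.0 and 20.4 CPM at 7 h, far apart (-1.46 ± 0.06, adjusted p 4.53e-15, limma). POLD1, the catalytic subunit, measured 42.2 and 42.7 CPM in regular culture and 63.7 and 63.9 CPM in treated cells at 7 h. That was a rise of 0.59 ± 0.05 (adjusted p 3.54e-10, limma). POLD1 shares 12.1% of its exon bases with a clone-named gene on the same strand, so reads there cannot be assigned to 1 gene. POLD2 was not called at 7 h (0.06 ± 0.04) and turned to -0.12 after quantile normalization and -0.26 under total scaling.

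In polymerase epsilon both listed subunits were lower at 7 h. POLE2 had the lowest levels of the 52 genes, 7.39 and 7.21 CPM against 6.80 and 7.98 CPM in treated cells at 1 h, and 9.54 and 10.1 against 4.26 and 4.21 CPM at 7 h. The 1 h pairs overlapped and the 7 h pairs were separate (-1.20 ± 0.10, adjusted p 2.51e-09, limma). The catalytic POLE changed less (-0.52 ± 0.04, adjusted p 7.13e-10).

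Of polymerase alpha and primase, which start each strand, POLA2 alone was called at 7 h (-0.83 ± 0.04, adjusted p 8.60e-13, limma). POLA1, the catalytic subunit, measured 41.03 and 45.5 against 46.9 and 46.1 CPM in treated cells at 1 h, and 42.4 and 45.1 against 40.8 and 41.7 CPM at 7 h. Its pairs did not overlap but were near each other, and neither difference passed (0.11 ± 0.05 and -0.09 ± 0.05). Under total scaling all 4 genes of this complex were called lower at 7 h (58.2% of all genes). The primase genes PRIM1 (0.01 ± 0.06) and PRIM2 (0.02 ± 0.06) overlapped between groups at 7 h, and both turned to lower values under total scaling (-0.31 and -0.30). POLA2 shares 53.7% of its exon bases with a clone-named gene on the same strand and PRIM1 25.99%, so reads there cannot be assigned to 1 gene.

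The clamp loader and RPA also split by subunit at 7 h. RFC4 (-0.54 ± 0.05), RFC3 (-0.49 ± 0.05) and RFC5 (-0.30 ± 0.04) fell, RFC2 was higher (0.26 ± 0.04, -0.06 under total scaling) and RFC1, the large subunit, was not called (0.02 ± 0.04, -0.29 under total scaling). RFC5 measured 52.5 and 52.02 against 55.9 and 57.7 CPM in treated cells at 1 h and 61.7 and 61.3 against 51.4 and 48.6 CPM at 7 h. The treated pair was thus above at 1 h (0.12 ± 0.04, adjusted p 0.0377, limma) and below at 7 h (adjusted p 3.57e-06). Its 1 h call was lost when any 1 of the 4 libraries at 1 h or either library of regular culture at 7 h was left out (0.10 to 0.14).

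RPA2 measured 50.2 and 53.3 against 60.0 and 61.9 CPM in treated cells at 1 h, and 70.8 and 69.3 against 55.5 and 55.0 CPM at 7 h. It was higher at 1 h (0.24 ± 0.04, adjusted p 0.000221, limma) and lower at 7 h (-0.34 ± 0.04, adjusted p 5.48e-07), without overlap. RPA1 fell at 7 h (-0.21 ± 0.04), while RPA3 overlapped between groups (0.04 ± 0.05) and turned to -0.28 under total scaling. LIG1, the ligase that seals Okazaki fragments, fell by 0.24 at 7 h (SE 0.05).

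Of the 4 nucleotide enzymes 2 were lower and 1 higher at 7 h (41.1% and 40.5% of all genes), and 1 was lower at 1 h (20.7% of all genes). RRM2, the small subunit of ribonucleotide reductase whose amount follows S phase, measured 563 and 549 CPM in regular culture and 493 and 494 CPM in treated cells at 1 h. At 7 h it measured 609 and 596 CPM against 366 and 343 CPM. Treated libraries were below regular ones at both times (-0.17 ± 0.03 and -0.77 ± 0.03, adjusted p 0.000357 and 3.42e-14, limma). RRM1, the large subunit, passed with a small 7 h difference (-0.09 ± 0.03, adjusted p 0.0138), which was lost without either library of regular culture (-0.09 and -0.10) or library B of treated cells (-0.08) at 7 h.

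TYMS, thymidylate synthase, measured 118 and 124 against 120 and 125 CPM in treated cells at 1 h, with overlap, and 108 and 107 against 107 and 99.8 CPM at 7 h, close but without overlap. Neither difference passed (0.02 ± 0.04 and -0.06 ± 0.04), although the 7 h one passed without library A of treated cells (-0.11), after quantile normalization (-0.14) and under total scaling (-0.37). ENOSF1 on the opposite strand covers 58.2% of the exon bases of TYMS, and the kit does not mark strand. TK1, thymidine kinase, was higher at 7 h (0.28 ± 0.03, adjusted p 1.04e-07, limma). It did not pass after quantile normalization (0.06) and turned to -0.04 under total scaling.

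Both subunits of chromatin assembly factor 1, which places histones behind the fork, were lower at 7 h. CHAF1A measured 63.4 and 65.9 against 65.1 and 66.5 CPM in treated cells at 1 h, with overlap, and 72.1 and 76.1 against 33.95 and 34.5 CPM at 7 h, far apart (-1.11 ± 0.04, adjusted p 8.94e-15, limma). CHAF1B measured 22.3 and 21.3 against 23.7 and 25.98 CPM at 1 h, and 22.2 and 24.1 against 19.2 and 17.6 CPM at 7 h. It was higher at 1 h (0.19 ± 0.07, adjusted p 0.0386) and lower at 7 h (-0.33 ± 0.07, adjusted p 0.000230). The 1 h call was lost without library A (0.22) or B (0.16) of regular culture or library B of treated cells (0.12) at 1 h.

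The change from 1 h to 7 h differed between the cultures. With time 34 of the 52 genes rose in regular culture and 2 fell, POLD1 and TYMS (30.7% and 30.8% of all genes, median 0.14). In treated cells 13 rose and 33 fell (36.9% and 40.7% of all genes, median -0.20), or 3 rose and 46 fell under total scaling, where 17.3% and 65.7% of all genes did. The 7 h fold change was lower than the 1 h fold change for 34 genes and higher for 10, by the test of the difference itself (37% and 36.7% of all genes). The median difference was -0.41, and total scaling gave 47 lower and 3 higher (58.2% and 19.3% of all genes). These comparisons share libraries, and the values of each are therefore given side by side.

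Of the 52 genes 23 rose with time in regular culture and fell in treated cells (14% of all genes did so), 26 after quantile normalization (16.1% of all genes) and 32 under total scaling (22.6%). ORC1 rose by 0.70 ± 0.06 in regular culture and changed by -0.14 ± 0.06 in treated cells (adjusted p 2.44e-09 and 0.0299, limma). E2F2 changed by 0.58 ± 0.07 and -2.43 ± 0.07, GINS1 by 0.51 ± 0.04 and -1.40 ± 0.04, and GMNN by 0.42 ± 0.05 and -0.77 ± 0.05. For these genes the 7 h difference thus included a rise of regular culture. PCNA changed by 0.02 ± 0.04 in regular culture, which did not pass, and fell by 0.76 in treated cells. Opposite called directions at 1 h and 7 h were seen in 9 of the 52 (CDC6, CDT1, CHAF1B, E2F2, ORC1, ORC2, ORC5, RFC5 and RPA2), against 13.3% of all genes. That count was 15 after quantile normalization (14.6% of all genes), 18 under total scaling (18.8%) and 5 without library A of regular culture at 1 h, and 6 without library B of treated cells at 1 h.

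**Figure D3:**
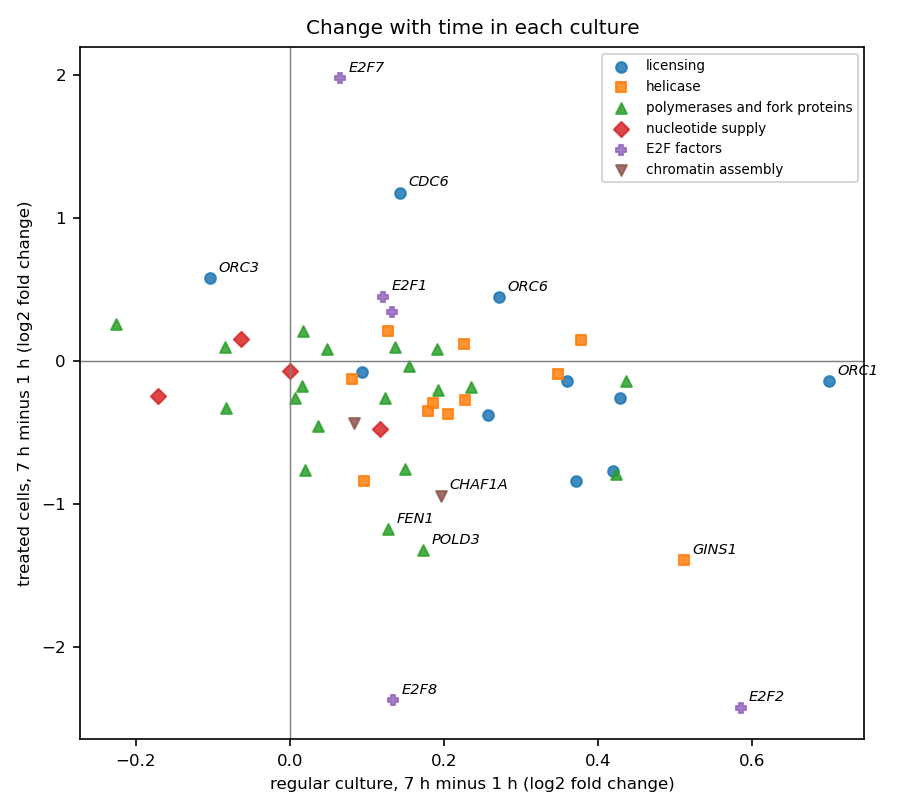
Log2 change from 1 h to 7 h in regular culture (horizontal) and in treated cells (vertical) for the 52 genes, with different scales on the axes. Most points lie to the right of zero and below it, with E2F2 at 0.58 and -2.43, while E2F7 stands alone at the top at 0.07 and 1.98.

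The 52 genes made up 0.598% and 0.600% of the 7 h reads of regular culture and 0.402% and 0.393% of those of treated cells, against 0.542% to 0.562% in the 4 libraries at 1 h. Reads taken up by the most abundant genes enter this share. On the deposited scale the 7 h difference was smaller. There the 52 genes summed to 5716 and 5706 CPM in regular culture and 4801 and 4648 CPM in treated cells.

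Related genes outside the 52 were read from lists by role. Of 12 RB, DREAM and DP proteins, the partners and repressors of E2F, 6 were lower and 3 higher at 7 h (41.1% and 40.5% of all genes). The median of the list was -0.15. Under total scaling 8 were lower and 1 higher (58.2% and 24.1% of all genes). RBL1, a pocket protein, fell by 1.43, TFDP1, the DNA-binding partner of the activators, by 1.21, and E2F5, a repressive member of the family, from 7.08 and 7.19 CPM to 3.14 and 3.03 CPM. LIN54, the DNA-binding part of the DREAM complex, rose by 0.83, and the smaller rises of E2F6 (0.41) and TFDP2 (0.35) did not pass under total scaling. At 1 h 3 of the list were higher and 3 lower (17.7% and 20.7% of all genes). Under total scaling 6 were higher and 2 lower at 1 h (30.2% and 13.99% of all genes).

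G1/S cyclins, kinases and inhibitors changed more: 11 of the 14 in the table were lower and 3 higher at 7 h (41.1% and 40.5% of all genes). The median of the list was -1.25. Under total scaling 11 were lower and 1 higher (58.2% and 24.1% of all genes). The other 3 of the 17 listed were not analysed here. SKP2, which targets p27 for degradation, was lower by -2.69 ± 0.06, FBXO5, an inhibitor of the anaphase-promoting complex, by -2.51 ± 0.07 and CDC25A, a phosphatase that activates CDK2, by -2.35 ± 0.05. CDKN1A, the CDK inhibitor p21, measured 259 and 258 CPM in regular culture against 164 and 169 CPM in treated cells at 1 h, and 57.3 and 59.0 against 333 and 328 CPM at 7 h. It was lower in treated cells at 1 h (-0.64 ± 0.03) and higher at 7 h (2.51 ± 0.03). With time it fell by 2.15 in regular culture and rose by 0.99 in treated cells, the fall in regular culture being the larger step. CCND3 (0.37) and CDK4 (0.28) were also higher, but neither passed under total scaling and CDK4 then had a value of -0.04. CDK4 also did not pass after quantile normalization (0.06). At 1 h 8 were lower and 4 higher (20.7% and 17.7% of all genes).

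Of 24 origin firing and fork accessory genes 16 were lower and 6 higher at 7 h (41.1% and 40.5% of all genes), with a median of -0.29. Under total scaling 19 were lower and 1 higher (58.2% and 24.1% of all genes). The largest falls were in TICRR (-1.45), which brings CDC45 to origins, CLSPN (-1.27), the checkpoint mediator claspin, and MCMBP (-1.19). TOP1, the topoisomerase that relieves torsion ahead of the fork, rose by 1.60, and the rises of POLD4 (0.37) and POLE4 (0.34) did not pass under total scaling. Of 12 other nucleotide enzymes 5 were lower and 4 higher (41.7% and 33.3%, near the shares of all genes), with a median of -0.01. All 12 were lower under total scaling (58.2% of all genes). DCTPP1 (-0.81), RRM2B (-0.69) and TK2 (-0.51) fell, whereas DGUOK (0.17) and DUT (0.16) were higher on the deposited scale and lower (-0.15 and -0.16) under total scaling.

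Among 10 genes of replication-coupled chromatin and protein degradation 7 were lower and 2 higher at 7 h (41.1% and 40.5% of all genes). The median of the list was -0.20. Under total scaling 9 were lower and 1 higher (58.2% and 24.1% of all genes). UHRF1, which guides maintenance DNA methylation, fell by 2.19, CDCA7 by 1.69 and the histone chaperone ASF1B by 0.86. The paralog ASF1A rose by 1.52, and SLBP, the histone mRNA binding protein, was at 0.14 and turned to -0.18 under total scaling. At 1 h the chromatin list had 2 higher and 4 lower genes, the nucleotide list 0 and 2, and the firing list 3 and 4. Under total scaling these 1 h counts were 3 and 1, 3 and 1, and 7 and 1. Over all genes the 1 h shares were 17.7% higher and 20.7% lower, and 30.2% and 13.99% under total scaling.

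Genes of G2 and mitosis were read for comparison because they mark the other proliferating phase. All 25 were lower at 7 h (41.1% of all genes), 19 of them at least 2-fold (11.5% of all genes). The median was -1.58, against -0.32 for the 52 genes. All 25 were also lower after quantile normalization (41.99% of all genes) and under total scaling (58.2%). MKI67, AURKA and AURKB had the largest falls, of -2.46 ± 0.04, -2.42 ± 0.04 and -2.27 ± 0.05. The summed level of all 25 genes was 3334 and 3264 CPM in treated cells at 7 h against 7799 to 8879 CPM in the other 6 libraries. At 1 h 4 were higher and 6 lower (17.7% and 20.7% of all genes), with a median of -0.02. Under total scaling 11 were higher and 3 lower at 1 h (30.2% and 13.99% of all genes), with a median of 0.05. The difference between both lists was not tested.

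**Figure D4:**
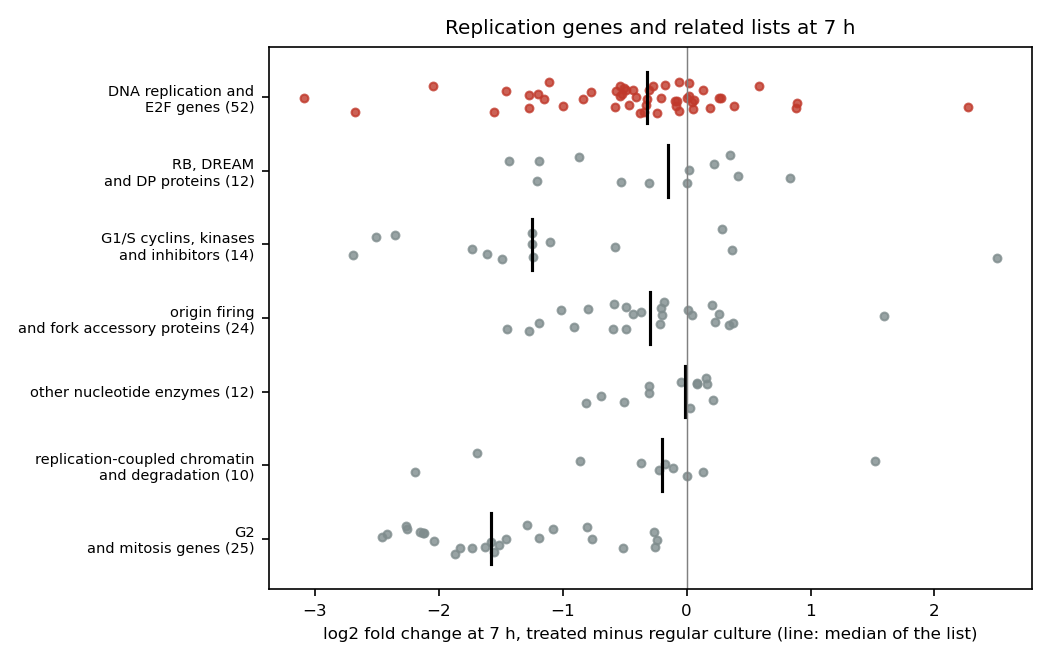
Log2 fold change of treated over regular culture at 7 h for each gene of the 6 roles and the related lists (dots), with the median of each list (line). The G2 and mitosis genes all lie below 0 with a median of -1.58, and the 52 genes span from -3.09 to 2.27.

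Read assignment is limited for some of the genes. In the GENCODE v29 annotation 12 of the 52 share more than 5% of their exon bases with another gene, and 9 have pseudogenes named after them. For 7 h fold changes of the partners in the table, ENOSF1 was at -0.30 (TYMS), AP4M1 at -0.87 (MCM7, 7.59% of exon bases), TMEM258 at 0.14 (FEN1, 7.23%) and ACVR2A at -0.18 (ORC4, 6.25%). RRM2 shares 27.9% and MCM2 30.7% of exon bases with a clone-named gene not analysed here. Finally, 205 of 12976 other genes had a correlation above 0.99 with the mean MCM2 to MCM7 pattern over the 4 group means, led by RRP36, SPG7, HEATR3, TBC1D14 and WDFY2, and with 4 points such likeness is common.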

How the data were processed

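RNA of 8 libraries (4 groups of 2) was sequenced from SMART-Seq mRNA HT and Nextera XT libraries, per the labels' protocols. These kits do not mark strand. HISAT2, edgeR and GRCh38 are named in the submitters' processing notes, with no version, and what counted the reads is not given in the sources used here. Values deposited by the authors were log2 CPM with a small prior, found from the low values to be 0.0522 CPM. After its removal 100% of values lay within 0.1 read of whole reads, and 3 reads were worth 0.0626 to 0.129 CPM. Printed CPM keep the deposited scale, without the prior. Columns name the group only, so libraries are called A and B in no order.

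The deposited log2 values of 13028 genes that reached 1 CPM in 2 or more libraries (8 removed) were fitted with limma 3.58.1 (R 4.3.3), with 1 mean per group, all 8 libraries and an intensity trend (4 residual and 14.5 prior degrees of freedom). A gene was called where the p adjusted by Benjamini-Hochberg over all tested genes was under 0.05. The prior understates fold changes of low genes. The design had also planned tests on counts; these were not used because the deposited unit was log2. The procedure was tested on simulated data. The simulation changed far fewer genes than were called at 7 h and held no shift in scaling, so it does not bear on the scaling. The 52 genes, the related lists and the tests were chosen with earlier results of these data known. Values in every library are given for genes called with at least 2-fold change, for 12 reference genes of the roles and for genes called in opposite directions at 1 h and 7 h; a few others (MCM3, POLD1) were added after their values were seen. From each related list up to 3 rises and 3 falls at 7 h are named, and 1 result is not reported here. Alternatives were other scalings, voom weights, a pseudocount of 1 CPM, other filters, a test against 1.2-fold and leaving out each library.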

Additional observations from a re-analysis of the deposited data

Results flagged for a closer look

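These genes are listed because their treated against regular difference was itself different at 7 h and 1 h by the limma interaction test, by at least 1 on the log2 scale or with called changes in opposite directions. Groups of 2 libraries allow no test for an outlying library. All values are the log2 fold change at 7 h minus that at 1 h.

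Among licensing factors the difference was 1.03 for CDC6, -0.84 for ORC1, -0.64 for ORC2, -0.68 for ORC5, -0.50 for CDT1, -1.19 for GMNN and -1.21 for MCM10. GINS1 was the helicase gene that met the rule, at -1.91. For polymerase and fork genes it was -1.50 for POLD3, -1.31 for FEN1, -1.21 for POLE2, -0.58 for RPA2 and -0.42 for RFC5. The E2F factors gave -3.01 for E2F2, -2.51 for E2F8 and 1.91 for E2F7, and chromatin assembly gave -1.14 for CHAF1A and -0.52 for CHAF1B. CDC6 and E2F7 were thus the only genes of these 18 whose difference was positive. Adjusted p lay between 4.24e-16 for GINS1 and 9.67e-05 for CHAF1B.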

How the results depend on the processing

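No paired analysis was possible because the columns carry no replicate numbers. The planned edgeR and DESeq2 fits were not run because the deposited unit is log2. On leaving out each library, counts of the 52 genes ranged from 9 to 14 higher and 7 to 11 lower at 1 h, 8 to 10 and 31 to 34 at 7 h, 8 to 10 and 32 to 34 for the difference between times, 28 to 36 and 2 to 2 for regular culture with time, and 11 to 13 and 30 to 32 for treated cells with time. Quantile normalization gave 25 higher and 6 lower at 1 h, where scaling to the total gave 24 and 6; the latter gave 4 higher at 7 h, 3 higher for the difference and 3 higher for treated cells with time. The test against 1.2-fold gave 0 higher and 1 lower at 1 h, 5 higher at 7 h (24 lower), 4 higher for the difference, 6 higher and 0 lower for regular culture with time, and 5 higher and 17 lower for treated cells with time; it asks for a larger change by construction. Over all genes this test called 494 higher and 759 lower at 1 h (2303 and 2694 on the main test), 3558 and 3779 at 7 h (5280 and 5350), and scaling to the total called 3937 and 1823 at 1 h and 3144 and 7581 at 7 h. The 7 h sign turned under quantile normalization for MCM5 (-0.15), POLD2 (-0.12) and ORC4 (0.0059, from -0.08, called in neither), and under scaling to the total for MCM5 (-0.27), CDC45 (-0.18), ORC6 (-0.13), RFC1 (-0.29), RFC2 (-0.058), PRIM1 (-0.31), PRIM2 (-0.30), POLD2 (-0.26), RPA3 (-0.28) and TK1 (-0.040). The median of all genes at 7 h shifted from -0.01 to -0.32 under that scaling. Calls at 7 h held in all 15 alternatives for 24 of the 33 lower and 4 of the 9 higher genes (CDC6, ORC3, POLD1 and E2F7). With at least 99 reads per gene and library, depth limited POLE2 most, whose standard error was 0.10.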
